A study of Mus musculus with 12 samples.

Results

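The genes described here are 10 surface receptors and ligands by which lymphocytes pass costimulatory and coinhibitory signals, namely Cd28, Cd80, Cd86, Icosl, Btla, Tnfrsf14, Cd2, Cd5, Cd6 and Cd72. They were chosen by name out of the 41128 genes of the expression table, and each name matched 1 row. RNA was sequenced from spleen cells of C57BL/6J mice, 6 to 8 weeks old, in 12 libraries that fall into 4 groups of 3. The groups are resting B cells of females, resting B cells of males, naive CD4+ T cells of females and naive CD4+ T cells of males. No group carried a transgene or a treatment in the labels. The B cells are labelled as lacking surface CD43, a sialoglycoprotein of T cells and of activated or innate-like B cells. The T cells were enriched on magnetic columns and then sorted as CD4+, CD62Lhi, CD44lo and CD25-. Each library is 1 pool of mice, so the spread between libraries and every p-value measure differences between pools. The labels number the B cell pools 1 to 3 and the T cell pools 4 to 6 in each sex. Values are named adjusted TPM. TPM is by its definition a length-corrected share of transcripts, but how it was adjusted is not given in the sources used here, and comparisons of levels between genes below rest on that name.

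T cells need a costimulatory signal beside the antigen receptor to become activated. CD28 on the T cell provides it when it meets CD80 or CD86 on an antigen-presenting cell, and CTLA-4 competes for the same ligands and inhibits. ICOS, a relative of CD28, is bound by ICOS ligand (the product of Icosl), which B cells display. BTLA is an inhibitory receptor whose ligand is HVEM, the product of Tnfrsf14, a member of the tumour necrosis factor receptor family. CD2 is an adhesion and costimulatory receptor that binds CD48 in mice. CD5 and CD6 are related scavenger receptor cysteine-rich proteins that tune antigen receptor signalling, and CD6 binds ALCAM. CD72 is a C-type lectin-like inhibitory receptor of B cells that binds the semaphorin SEMA4D.

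Totals of adjusted TPM ran from 561020 to 1453940 per library, and between 11122 and 11543 genes per library reached an adjusted TPM of 1. The largest single gene, Yam1 or Rn7sk, took 11.4% to 37.4% of a library's total. The markers of each labelled cell type were high in its own libraries. The 4 B cell markers (Cd79a, Cd79b, Ms4a1, Pax5) summed to 2220.4 to 2643 in B cells and to 0.896 to 4.91 in T cells. The 5 T cell markers (Cd3d, Cd3e, Cd3g, Cd4, Tcf7) summed to 1128 to 1384 in T cells and to 0.639 to 1.20 in B cells. Both T cell libraries numbered 6 stood apart from the other 4. Il2ra, which encodes the CD25 excluded by the sort, was at 5.0 and 4.11 in the libraries numbered 6 and between 0.158 and 0.340 in the others. Foxp3, the lineage factor of regulatory T cells, was at 2.57 and 1.82 in the libraries numbered 6 and between 0.440 and 0.735 in the others. Results for T cells are therefore also given without these libraries.

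All 10 genes differed between the cell types without overlap of the 6 B cell and 6 T cell libraries. Icosl, Cd72, Cd86, Btla and Cd80 were higher in B cells, and Cd28, Cd6, Cd5, Tnfrsf14 and Cd2 were higher in T cells. In the table as a whole, 53.9% of the 12520 tested genes had no overlap between the cell types. Genes were tested where at least 3 libraries reached an adjusted TPM of 1, which 9 of the 10 did. Cd80 did not. Of the 9 tested genes, 4 were past an adjusted p of 0.05 with the higher level in B cells, against 31.4% of all tested genes, and 5 with the higher level in T cells, against 41.6%. In either direction this makes 9 of 9, against 73.0% of all tested genes. A call between these cell types was thus common. Differences are given below on the log2(adjusted TPM + 1) scale, as B cells minus T cells. The median absolute difference was 4.42 over the 9 genes and 0.40 over all tested genes. In ordered size, Cd28, Cd6 and Cd5 were at places 18, 19 and 24 among the 7120 genes with the higher level in T cells. These genes were at most 1.09 in B cells, so the sizes of their differences depend on the pseudocount of 1. Their places did not follow the T cell means, which were 135 for Cd28, 112 for Cd6 and 163 for Cd5. In B cells the means were 0.136 for Cd28, 0.0110 for Cd6 and 0.783 for Cd5. With a pseudocount of 0.1 the differences were -9.24 for Cd28, -9.99 for Cd6 and -7.58 for Cd5. Icosl and Cd72 were at places 101 and 166 among the 5400 genes with the higher level in B cells. Of all calls, 3926 genes were higher in B cells and 5208 in T cells, which turned to 4812 and 1985 when every library was rescaled to the same total, while the 9 members kept their directions. In bulk RNA, fewer cells of a type that express a gene and less RNA per cell cannot be told apart.

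**Figure D1:**
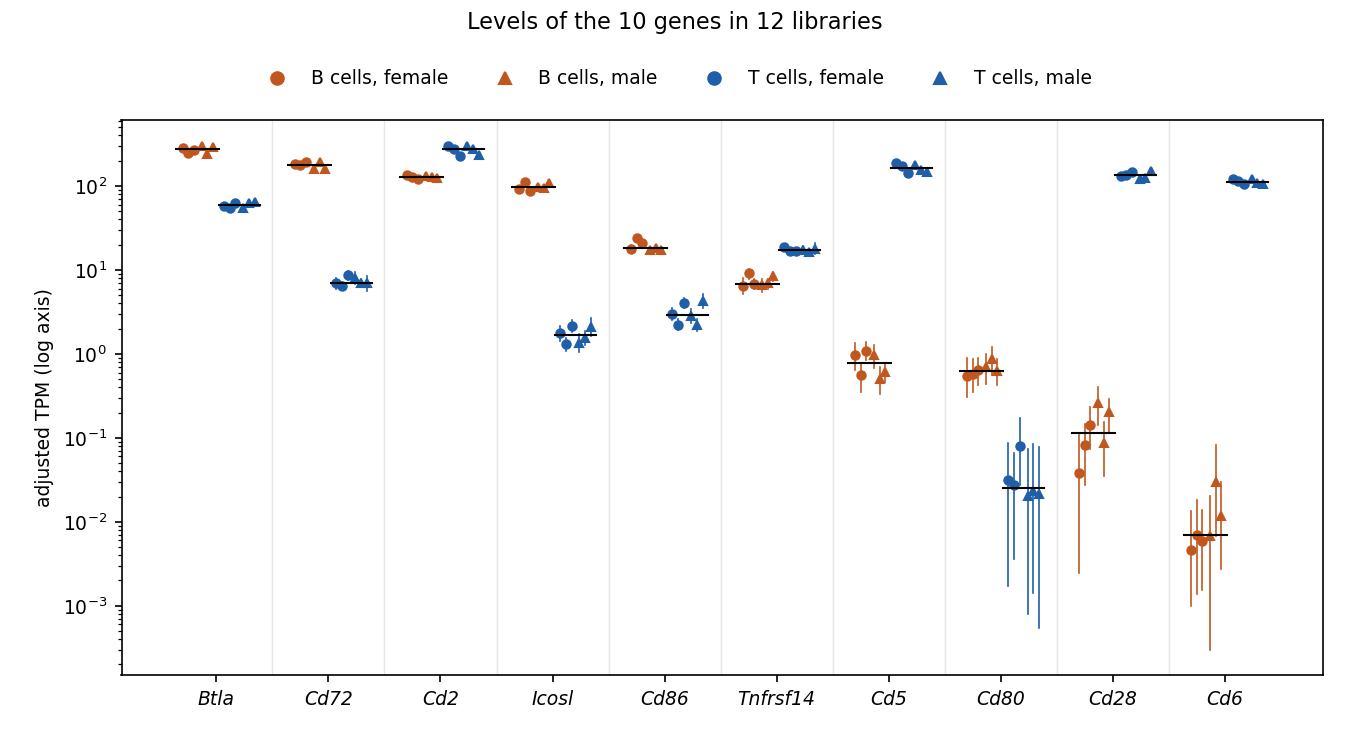
Adjusted TPM (log axis) of the 10 genes in each of the 12 libraries, in orange for B cells and blue for T cells, with circles for females and triangles for males. Thin lines are the deposited lower and upper bounds, and black bars are medians over the 6 libraries of a cell type. No gene has overlapping point values between B and T cells, while the values of Cd80 in T cells and of Cd28 and Cd6 in B cells lie below 0.3 with wide bounds.

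**Figure D2:**
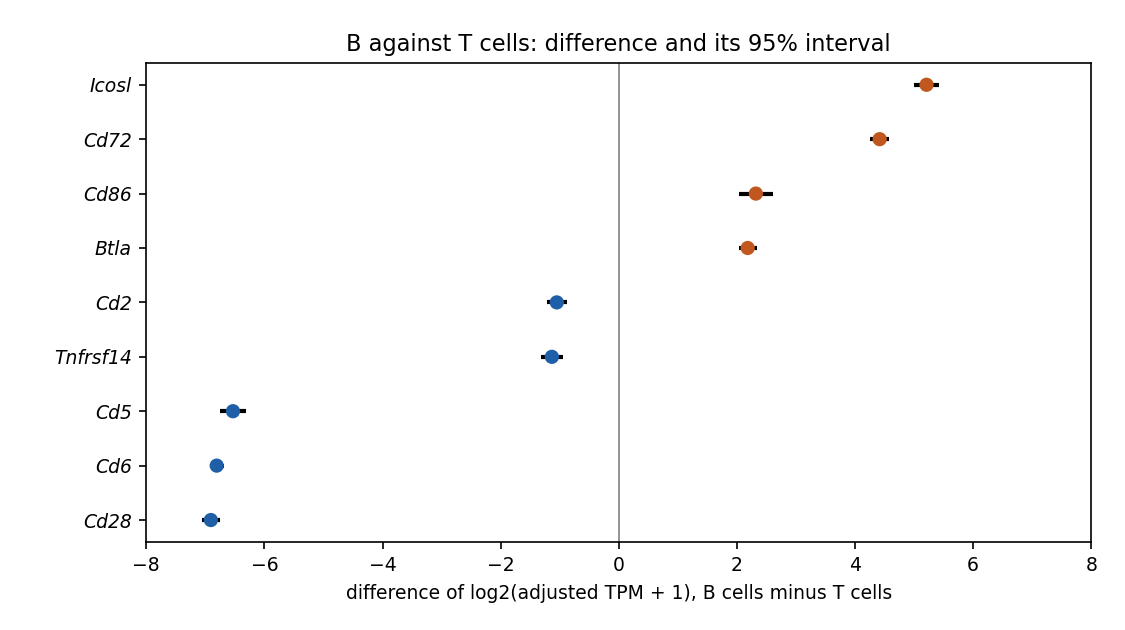
Difference of log2(adjusted TPM + 1) between B cells and T cells for the 9 tested genes, with the 95% interval of the fit across all genes (6 libraries per cell type). Orange points are higher in B cells and blue points higher in T cells. The values run from -6.91 for Cd28 to 5.21 for Icosl, and no interval reaches 0.

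The start regions of 4 genes with large differences are shown to put sequence beside these levels, with 3 genes of higher level in B cells and 1 of higher level in T cells. Each is the RefSeq stretch of GRCm38.p6 from 250 bases before to 50 bases after the annotated start, read on the strand of the gene, and 6 of the 10 genes had an entry. Capitals mark GGGCGG (the core of a GC box), TATAAA (known from core promoters) or GAGGAAG (the core of sites bound by the Ets factor PU.1), each searched on both strands, so a match on the opposite strand is capitalised too. Icosl is at chr10:78069118-78069417 (plus strand), Cd72 at chr4:43454577-43454876 (minus strand), Btla at chr16:45224087-45224386 (plus strand) and Cd5 at chr19:10738925-10739224 (minus strand).
Icosl: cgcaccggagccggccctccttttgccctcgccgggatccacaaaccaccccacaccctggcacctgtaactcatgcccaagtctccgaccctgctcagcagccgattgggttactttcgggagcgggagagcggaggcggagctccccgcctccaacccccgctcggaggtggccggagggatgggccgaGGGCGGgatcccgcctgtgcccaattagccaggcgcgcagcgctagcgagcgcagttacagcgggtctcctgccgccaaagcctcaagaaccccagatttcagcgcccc
Cd72: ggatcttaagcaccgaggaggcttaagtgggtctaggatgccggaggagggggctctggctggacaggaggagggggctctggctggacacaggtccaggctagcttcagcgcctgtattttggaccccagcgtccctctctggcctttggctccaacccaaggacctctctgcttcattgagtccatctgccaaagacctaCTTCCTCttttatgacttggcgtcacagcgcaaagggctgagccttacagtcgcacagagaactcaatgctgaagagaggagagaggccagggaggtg
Btla: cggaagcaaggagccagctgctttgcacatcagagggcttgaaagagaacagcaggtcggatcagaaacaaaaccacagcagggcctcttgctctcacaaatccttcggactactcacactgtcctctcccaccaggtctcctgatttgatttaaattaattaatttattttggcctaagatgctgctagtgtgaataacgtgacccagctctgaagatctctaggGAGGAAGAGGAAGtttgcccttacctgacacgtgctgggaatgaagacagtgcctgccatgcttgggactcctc
Cd5: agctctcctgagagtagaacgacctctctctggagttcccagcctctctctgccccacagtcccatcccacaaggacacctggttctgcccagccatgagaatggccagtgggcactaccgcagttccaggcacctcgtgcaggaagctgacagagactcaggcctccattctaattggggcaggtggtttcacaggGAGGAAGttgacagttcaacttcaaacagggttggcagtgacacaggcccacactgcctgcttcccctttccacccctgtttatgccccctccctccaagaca
The Icosl region held 26 CpG dinucleotides and 68.0% G and C, against medians of 7 and 52.7% over 32851 RefSeq start regions of the same length. The other matched genes held 2 (Tnfrsf14), 3 (Cd5 and Cd80), 5 (Btla) and 7 (Cd72) CpG. GGGCGG was found in the Icosl region alone of the 6, and 35.7% of all start regions hold it. GAGGAAG was found 2 times in Btla, as overlapping copies, and 1 time each in Cd72 and Cd5, and 13.6% of all start regions hold it. TATAAA was found in the Cd80 region alone, and 13.6% of all start regions hold it. The regions of Cd80 (chr16:38458683-38458982) and Tnfrsf14 (chr4:154928028-154928327) lie wholly inside the gene coordinates given below. Their RefSeq starts thus differ from the starts of those coordinates. The E-box letters CANNTG, not capitalised, were in each of the 6 regions and in 72.3% of all start regions. GAGGAAG and the E-box letters occurred in genes of both directions, and a match describes the sequence without showing that a factor binds there.

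The ligands of CD28 and ICOS were higher in B cells, and Icosl exceeded Cd86 and Cd80 by far. Icosl (chr10:78069302-78083913) was at 87.5, 96.4 and 112 (lowest, median and highest) in the 6 B cell libraries and at 1.31, 1.68 and 2.14 in the 6 T cell libraries. The lowest B cell pool was thus far above the highest T cell pool. The ratio of the means was 57.9, and the difference of log2(adjusted TPM + 1) was 5.21 (SE 0.10, adjusted p = 3.6e-14). Cd86 (chr16:36603869-36666081, minus strand) was at 17.3, 18.0 and 24 in B cells and at 2.22, 2.93 and 4.31 in T cells. Its ratio of means was 6.20, with a difference of 2.32 on the log2 scale (SE 0.13, adjusted p = 3.9e-09). Cd80 (chr16:38455561-38496335), the other ligand of CD28 and CTLA-4, stayed below 1 in every library. It was at 0.548, 0.627 and 0.861 in B cells and at 0.0200, 0.0253 and 0.0804 in T cells, where the deposited upper bound was 6.26 to 145 times the lower bound. All 6 B cell values were above all 6 T cell values (exact permutation test, two-sided, p = 0.0022, the smallest that 6 against 6 libraries allow). That p treats the 6 T cell libraries as separate although their numbers pair them across the sexes. With the T cell libraries averaged by number it was 0.024, and without those numbered 6 as well it was 0.071, each the smallest those sets allow. In B cells the level of Cd86 was 21.1 to 41.6 times that of Cd80, and the level of Icosl was 4.19 to 6.29 times that of Cd86. In T cells the order of Icosl and Cd86 was turned, and Cd86 was at 1.42 to 2.09 times the level of Icosl.

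Markers of other antigen-presenting cells moved in the same direction as these ligands. Of 11 listed dendritic cell or macrophage genes, 10 were in the table, 7 were tested, 6 were higher in B cells and 1 did not pass. They summed to 14.7 to 23.5 in B cells and to 2.92 to 6.63 in T cells. Lyz2, a lysozyme gene of myeloid cells, was at 6.82 to 11.1 in B cells and at 0.0335 to 2.52 in T cells. Itgax, which encodes CD11c, was at 1.06 to 4.08 in B cells and at 0.0372 to 0.499 in T cells. Siglech, a marker of plasmacytoid dendritic cells, was at most 0.00180 in any library. Of 7 genes known to rise in activated B cells, 3 were higher in B cells, 2 were higher in T cells and 2 did not pass. Under total rescaling, median-ratio scaling and quantile normalization, 4 were higher in B cells, and 1, 2 and 2 were higher in T cells. The 7 genes summed to 183 to 251 in B cells and to 97.6 to 156 in T cells. The part of such cells in the levels of Cd86, Cd80 and Icosl was not tested.

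Cd28, the receptor of CD80 and CD86, was at 121, 134 and 151 in T cells and at 0.0384, 0.115 and 0.263 in B cells. The gene is at chr1:60716800-60773359. Its highest deposited upper bound in B cells was 0.404, so no B cell pool came near a T cell pool. The difference was -6.91 on the log2 scale (SE 0.07, adjusted p = 1.5e-16), with B cells minus T cells as its direction. Since the pseudocount of 1 exceeds every B cell value, this size depends on the pseudocount, and it was -9.24 with a pseudocount of 0.1. The receptor genes Icos and Ctla4 were also higher in T cells, at lower levels than Cd28. Icos was at 11.1 to 16.7 in T cells and at 0.0687 to 0.290 in B cells (difference -3.60, SE 0.10, adjusted p = 1.9e-12). Ctla4 was at 1.57 to 13.2 in T cells and at 0.00524 to 0.136 in B cells (difference -2.17, SE 0.43, adjusted p = 0.00056). Without both libraries numbered 6, which held the most Ctla4 among T cells, its difference was -1.43 (SE 0.06, adjusted p = 4.2e-09). Naive T cells therefore held 9.04 to 11.6 times as much Cd28 as Icos, and 11.2 to 77.2 times as much Cd28 as Ctla4. The low end of the second ratio came from the libraries numbered 6, at 11.2 and 13.2, while the other 4 libraries lay between 61.7 and 77.2.

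Of 9 further genes of the B7 and CD28 family, 7 were tested, 3 were higher in B cells and 4 were higher in T cells. Their median difference was -1.66, beside -0.09 over all tested genes. The ligands of PD-1 were higher in B cells. Cd274, which encodes PD-L1, was at 15.5 to 19.1 in B cells and at 7.44 to 9.57 in T cells (difference 0.86, SE 0.07, adjusted p = 3e-07). Pdcd1lg2, which encodes PD-L2, was at 4.38 to 7.32 in B cells and at 0.181 to 0.539 in T cells (difference 2.40, SE 0.12, adjusted p = 6.9e-10). Btnl2, a butyrophilin-like gene, was at 2.03 to 3.05 in B cells and at 0.0347 to 0.0721 in T cells (difference 1.74, SE 0.08, adjusted p = 3.2e-10). On the T cell side, 4632428N05Rik, the gene of the inhibitory protein VISTA, was at 107 to 142 in T cells and at 4.71 to 6.16 in B cells (difference -4.30, SE 0.09, adjusted p = 7.7e-14). In T cells its level was close to that of Cd28.

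The genes of the BTLA and HVEM pair were expressed in both cell types, in opposite directions. Btla (chr16:45224315-45257670) was at 241, 277 and 299 in B cells and at 54.2, 59.7 and 63.7 in T cells. It was the highest of the 10 genes in every B cell library and had a ratio of means of 4.61 (difference 2.18, SE 0.07, adjusted p = 1.1e-11). Tnfrsf14 (chr4:154921933-154928563, minus strand) was at 6.49, 6.84 and 9.13 in B cells and at 16.2, 17.1 and 18.8 in T cells. The T cell level was 2.34 times the B cell level (difference -1.13, SE 0.09, adjusted p = 7e-08). The receptor exceeded its ligand in every library, by 27.4 to 45.8 times in B cells and by 3.04 to 3.85 times in T cells. Of the further genes around this pair, Ltb, which encodes lymphotoxin beta, was at 230 to 323 in B cells and at 244 to 344 in T cells and did not pass the test. Tnfsf14, which encodes the HVEM ligand LIGHT, was at 0.0697 to 0.172 in B cells and at 0.0977 to 0.402 in T cells, and was not tested. Cd160, another receptor for HVEM, was at 0.839 to 1.56 in B cells and at 1.32 to 2.13 in T cells (difference -0.39, SE 0.10, adjusted p = 0.003). This call was lost when every library was rescaled to the same total (difference -0.17, adjusted p = 0.37). Lta, which encodes lymphotoxin alpha, was at 7.56 to 10.6 in B cells and at 4.14 to 5.49 in T cells (difference 0.76, SE 0.08, adjusted p = 2.7e-06). Of the 5 listed partners, 3 were tested, of which 1 was higher in B cells, 1 was higher in T cells and Ltb did not pass. The median difference of the 3 was -0.08, beside -0.09 over all tested genes, and it was between 0.02 and 0.30 under the 3 other scalings.

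Of the receptors known from T cells, Cd5 and Cd6 were at or below 1.09 in B cells, while Cd2 was expressed in both cell types. Cd2 (chr3:101275899-101287939, minus strand) was at 227, 276 and 299 in T cells and at 121, 129 and 135 in B cells. It was the highest of the 10 genes in every T cell library, and its ratio of means was 2.09 (difference -1.05, SE 0.08, adjusted p = 7.1e-08). Cd5 was at 143, 164 and 187 in T cells and at 0.503, 0.785 and 1.09 in B cells. The ratio of means was 209 (difference -6.53, SE 0.10, adjusted p = 5.7e-15). Cd6 was at 105, 111 and 121 in T cells and at 0.00465, 0.00687 and 0.0299 in B cells, where its highest deposited upper bound was 0.0819. The difference was -6.81 (SE 0.05, adjusted p = 4.3e-17), and it was -9.99 with a pseudocount of 0.1. Cd5 (chr19:10717116-10739002) and Cd6 (chr19:10789341-10830058) lie on the minus strand, 50338 bases apart, with 1 annotated gene between them, A430093F15Rik. In T cells the neighbours ran close together, with 1.35 to 1.55 times as much Cd5 as Cd6. In B cells the point values of Cd5 were 16.8 times those of Cd6 or more, while the deposited bounds allowed as little as 4.05 times in male B cell 2.

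The ligands of these receptors were on the B cell side or in both cell types. Alcam, the ligand of CD6, was at 12.2 to 14.1 in B cells and at 0.190 to 0.505 in T cells (difference 3.46, SE 0.07, adjusted p = 7.9e-14). The ligand of CD2, Cd48, was at 94.0 to 132 in B cells and at 79.1 to 108 in T cells and did not pass the test, though it did pass as higher in B cells under each of the 3 other scalings. The level of Cd2 was 1.01 to 1.36 times that of Cd48 in B cells and 2.29 to 3.48 times in T cells. Of 3 genes known from B-1 cells, an innate-like B cell that carries CD5 and CD43, 2 were tested and they moved in opposite directions. Bhlhe41 was at 2.25 to 3.93 in B cells and at 0.00123 to 0.00550 in T cells. Spn, which encodes the CD43 used for depletion, was at 6.00 to 8.46 in B cells and at 168 to 201 in T cells. The list summed to 8.88 to 13.4 in B cells and to 169 to 201 in T cells. The part of B-1 cells in the Cd5 level of B cells was not tested.

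Cd72, the inhibitory receptor of B cells, was at 159, 180 and 194 in B cells and at 6.49, 7.02 and 8.63 in T cells. The gene is at chr4:43446462-43454628 on the minus strand. The ratio of means was 24.1 (difference 4.42, SE 0.07, adjusted p = 1.6e-14), and the cell types were far from overlapping. Its ligand gene Sema4d was at 44.8 to 58.2 in B cells and at 29.7 to 36.1 in T cells (difference 0.66, SE 0.07, adjusted p = 3.6e-06). With Alcam and Cd48 this makes 3 listed ligands, of which 2 were higher in B cells and 1 did not pass, with a median difference of 0.66.

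Genes of the same pathways outside the 10 members followed both directions. Of all tested genes, 31.4% were higher in B cells and 41.6% in T cells. Of 14 costimulators of the tumour necrosis factor family, 8 were tested, of which 1 was higher in B cells and 7 in T cells. Their median difference was -3.31, beside -0.09 over all tested genes. The B cell gene was Cd40, the receptor for T cell help, at 50.4 to 62.4 in B cells and no more than 0.00498 in T cells (difference 5.86, SE 0.06, adjusted p = 1.9e-16). The T cell genes with the largest differences were Cd27 (-5.38, SE 0.07, adjusted p = 2.1e-15), Tnfrsf25 (-4.82, SE 0.06, adjusted p = 5.8e-16) and Tnfsf8 (-4.40, SE 0.10, adjusted p = 1.8e-13). Cd27, a costimulatory receptor for CD70, was at 97.9 to 119 in T cells, a level similar to that of Cd6.

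Of 20 other inhibitory or nectin-binding surface genes, 19 were in the table and 15 were tested, of which 7 were higher in B cells, 6 were higher in T cells and 2 did not pass. Their median difference was 0.01, beside -0.09 over all tested genes. The T cell call of Cd47, the 1 of these genes that changed with the scaling, was lost under total rescaling and under median-ratio scaling. The B cell genes with the largest differences were inhibitors of the B cell receptor, namely the siglecs Cd22 (336 to 367 in B cells, difference 8.37) and Siglecg (115 to 153, difference 6.98) and the Fc receptor Fcgr2b (57.8 to 65.3, difference 5.94). In B cells Cd22 was thus above each of the 10 members. The T cell genes were Cd96 (78.1 to 95.3 in T cells, difference -6.34) and Cd226 (33.4 to 39.1, difference -4.45), which share nectin-like ligands, and Cd200r1 (9.87 to 12.2, difference -3.44), the inhibitory receptor for CD200. The adjusted p of these 6 genes was at most 1.6e-12.

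Of 22 cytoplasmic partners of such receptors, 7 were higher in B cells, 12 were higher in T cells and 3 did not pass. Over all tested genes the shares higher in B and T cells were 31.4% and 41.6%. The median difference of the partners was -0.19, beside -0.09 over all tested genes. Lyn, the Src family kinase that phosphorylates inhibitory receptors in B cells, was at 189 to 219 in B cells and no more than 1.08 in T cells (difference 7.29, SE 0.14, adjusted p = 4.9e-14). Ptpn6, which encodes the phosphatase SHP-1 recruited by BTLA, CD72 and CD5, was at 323 to 383 in B cells and at 77.6 to 115 in T cells (difference 1.86, SE 0.10, adjusted p = 1.6e-09). Inpp5d, which encodes the phosphatase SHIP-1, was at 84.7 to 97 in B cells and at 32.7 to 37.7 in T cells (difference 1.31, SE 0.06, adjusted p = 1.7e-10). Toward T cells, the differences were largest among these in Prkcq, the protein kinase C of the CD28 pathway (-7.16, SE 0.05, adjusted p = 1.5e-17), the adaptor gene Lcp2 (-5.56, SE 0.11, adjusted p = 6.9e-14) and Ubash3a, which encodes a negative regulator of T cell receptor signalling (-5.20, SE 0.05, adjusted p = 1.9e-16). When every library was rescaled to the same total, 9 partners were higher in B cells and 9 were higher in T cells. The median of the partners then turned to 0.19, beside 0.25 over all tested genes.

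Within B cells the members' levels fell in the order Btla, Cd72, Cd2, Icosl, Cd86, Tnfrsf14, Cd5, Cd80, Cd28 and Cd6. Neighbours in this order did not overlap over the 6 libraries except Cd5 and Cd80, for which Cd5 was the higher in 3 of 6 libraries. Within T cells the order was Cd2, Cd5, Cd28, Cd6, Btla, Tnfrsf14, Cd72, Cd86, Icosl and Cd80. Here the overlapping neighbours were Cd5 and Cd28, with Cd5 the higher in 4 of 6 libraries. The exceptions were the libraries numbered 6.

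For each tested member, the genes most like it were those with the smallest root mean square difference of log2(adjusted TPM + 1) over the 12 libraries, among 12230 tested genes without antigen receptor segments. The closest pair of all was Cd6 with Themis, at 0.06, followed for Cd6 by Bcl11b at 0.19. In B cells the means of Cd6 and Themis were 0.0110 and 0.000143, a gap that the pseudocount of 1 flattens. Their distance thus rests on the T cell libraries, with means of 112 and 108. Cd2 was closest to S1pr1 (0.11) and Gm15500 (0.15), and Tnfrsf14 to Ascc1 (0.14) and Hdac4 (0.16). Cd28 was closest to Nsg2 (0.21) and Als2cl (0.25), and Cd5 to Nsg2 (0.39) and Cd247 (0.39). On the B cell side, Icosl was closest to H2-Oa (0.25) and Ncf1 (0.30), Cd86 to Ybx3 (0.21) and Top2a (0.23), Btla to Apobec3 (0.26) and Cd37 (0.28), and Cd72 to Snn (0.30) and H2-DMa (0.34). These are descriptions over libraries that share their cell types, with no test.

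The members of B cell level that were still measured in T cells stood above the B cell markers there. In T cell libraries the 4 B cell markers were at 0.000167% to 0.322% of their mean in B cells. By the same measure Icosl was at 1.32% to 2.16%, Cd72 at 3.66% to 4.87%, Cd86 at 11.5% to 22.3% and Btla at 19.9% to 23.4%. No T cell library had a B cell marker share as high as any of these. The dendritic cell or macrophage list, which these markers do not cover, summed to 2.92 to 6.63 in T cells and to 14.7 to 23.5 in B cells. The part of other cells in these levels was not tested. In B cell libraries the 5 T cell markers were at 0.000743% to 0.208% of their mean in T cells. Cd5 was at 0.308% to 0.668% there, above all of them, Tnfrsf14 at 37.5% to 52.8% and Cd2 at 45.1% to 50.2%. Cd28 at 0.0283% to 0.194% and Cd6 at 0.00414% to 0.0266% lay within the range of the T cell markers.

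**Figure D3:**
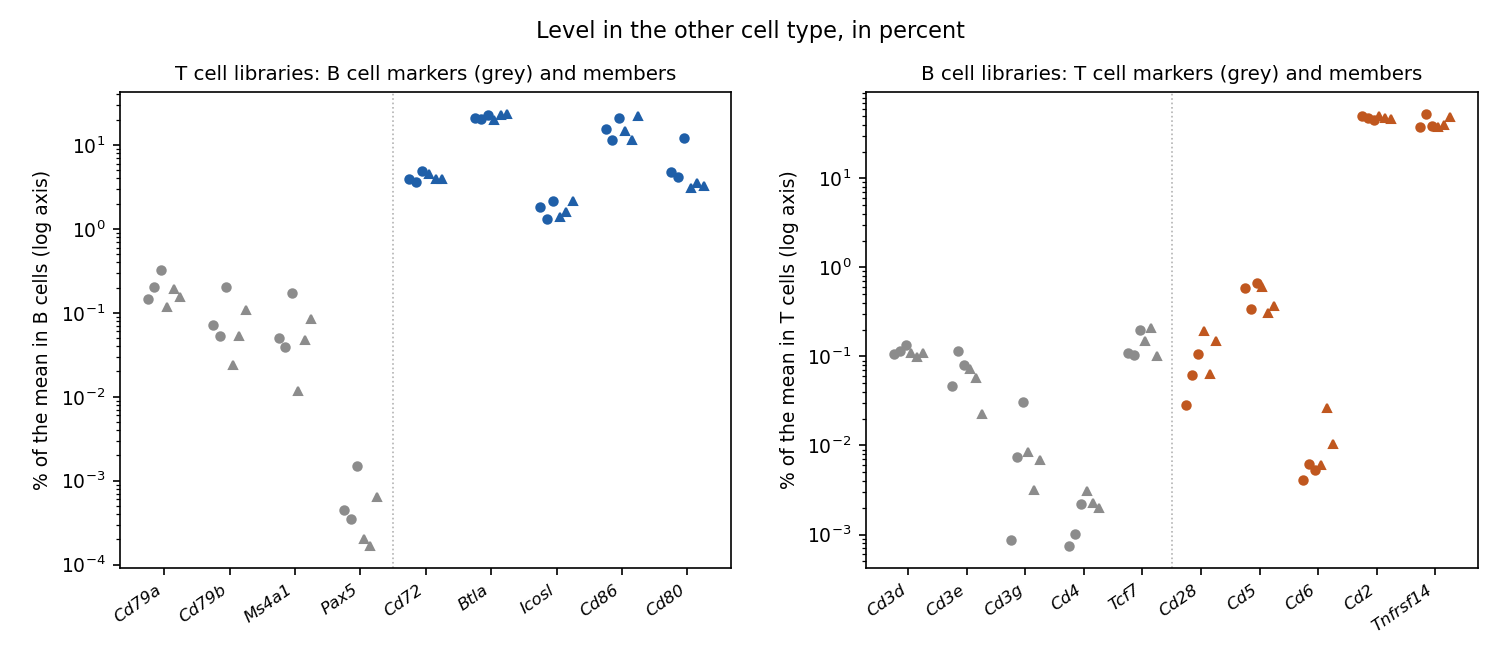
Level in the libraries of a cell type as a percent of the mean in the opposite cell type (log axis), for T cell libraries on the left and B cell libraries on the right, with circles for females and triangles for males. Grey points are the markers of the opposite cell type (4 on the left and 5 on the right), and coloured points are the members with the higher level in it. On the left each member lies above the highest marker value of 0.322%, and on the right Cd28 and Cd6 lie among the markers, at most 0.194% and 0.0266%.

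Among T cells, the libraries numbered 6 of both sexes differed from those numbered 4 and 5 in 6 of the 9 tested members. No overlap between these 2 and 4 libraries was seen for 35.6% of all tested genes, and the comparison was made after the values were seen and carries no test. Cd28 was at 148 and 151 in the libraries numbered 6 and between 121 and 136 in the others. Icosl was at 2.14 and 2.12 against 1.31 to 1.79, and Cd86 at 4.07 and 4.31 against 2.22 to 3.02. Lower in the libraries numbered 6 were Cd2, at 227 and 237 against 275 to 299, Cd5, at 143 and 146 against 155 to 187, and Cd6, at 106 and 105 against 108 to 121. Accordingly the ratio of Cd28 to Cd5 was 1.03 in both libraries numbered 6 and between 0.686 and 0.803 in the others. This ratio within a library is unchanged by a factor that scales the whole library, though quantile normalization can change it. With every library rescaled to the same total, Cd28, Icosl, Cd86 and Cd6 overlapped and Cd2 and Cd5 remained lower, with median-ratio scaling Cd6 overlapped, and with quantile normalization Cd5 and Cd6 overlapped.

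The same libraries held more of several genes known from regulatory or activated T cells. As deposited, in the libraries numbered 6, 6 of the 7 listed genes were higher than in each of the others, and the list summed to 102 and 103 against 67.7 to 74.7. Ikzf2, a transcription factor gene of regulatory T cells, was at 13.4 and 11.3 against 1.07 to 2.07. Tnfrsf4, which encodes the costimulator OX40, was at 9.16 and 8.18 against 3.58 to 4.16. Outside the list, Ctla4 was at 13.2 and 11.4 against 1.57 to 2.15, and Icos at 15.1 and 16.7 against 11.1 to 12.6. Cd44, the activation marker kept low by the sort, overlapped, at 9.86 and 5.89 against 7.36 to 10.7. With every library rescaled to the same total, Foxp3, Il2ra, Ikzf2, Tnfrsf4 and Ctla4 remained higher in both libraries numbered 6, whereas Folr4, Tnfrsf18 and Icos overlapped, and the list sum was 128 and 70.6 against 73.1 to 82.5. As deposited, the summed levels of B cell markers and of dendritic cell or macrophage markers were also higher in these libraries, at 4.91 and 2.43 against 0.896 to 1.82 for the 4 B cell markers and at 6.63 and 3.74 against 2.92 to 3.34 for the dendritic cell or macrophage list. Single genes did not all follow, since 3 of 4 and 4 of 10 genes of these lists were higher in both libraries numbered 6. At equal totals the sums were 6.14 and 1.67 against 0.949 to 2.12 and 8.29 and 2.57 against 3.29 to 3.77, so that male T cell 6 did not stand above the others. The part of such cells in the members' levels was not tested. Without both libraries numbered 6, the differences between B and T cells were -6.83 for Cd28, -6.85 for Cd6, -6.62 for Cd5, -1.13 for Tnfrsf14, -1.15 for Cd2, 5.32 for Icosl, 4.46 for Cd72, 2.5 for Cd86 and 2.23 for Btla, and 9 of 9 tested members stayed past the threshold.

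Between the sexes no tested member passed the threshold in either cell type. In B cells 0 of 9 tested members passed an adjusted p of 0.05 in limma, against 0.144% of all tested genes, and 0 members had an unadjusted p under 0.05, against 373 genes. In T cells 0 of 9 passed, against 0.104% of all tested genes, and 0 members had an unadjusted p under 0.05, against 319 genes. Differences of females minus males ran from -0.12 to 0.22 in B cells and from -0.04 to 0.08 in T cells on the log2 scale. The widest intervals were those of Cd86. It was at 20.9 ± 3.10 in B cells of females and 17.7 ± 0.444 in B cells of males (mean ± SD, n = 3), a difference of 0.22 with a 95% interval from -0.18 to 0.63. In T cells Cd86 was at 3.10 ± 0.919 in females and 3.12 ± 1.07 in males, a difference of 0.00 with an interval from -0.40 to 0.41. That interval leaves aside the pairing of T cell libraries by number. Females and males of the same number were at 3.02 and 2.83, 2.23 and 2.22, and 4.07 and 4.31. The fit shares its estimate of the spread over all 4 groups. The SE of Cd86 in B cells was thus 0.19, against 0.11 in a fit of B cells alone. The narrowest intervals were those of Cd6. Its T cell levels were 114 ± 7.36 and 111 ± 8.07, with an interval from -0.13 to 0.20. That width also draws on B cells, where Cd6 was at most 0.0299. The SE of Cd6 was 0.08 in each cell type, against 0.02 in a fit of B cells alone. The 3 female and 3 male libraries overlapped for each of the 10 genes in B cells, while 7.20% of tested genes did not overlap. In T cells they overlapped for 9 of the 10, while 8.49% of tested genes did not overlap. The exception was Cd80, at 0.0275 to 0.0804 in females and 0.0200 to 0.0232 in males, where the deposited bounds overlapped. The difference between the sex effects of B and T cells was past the threshold for 0 of 9 members and for 0% of all tested genes, with 295 genes and 0 members at an unadjusted p under 0.05. Column names hold a digit of unstated meaning that follows sex within each cell type, so it cannot be told apart from sex there, nor from the difference between the sex effects.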

How the data were processed

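RNA from 12 pools of spleen cells was sequenced as strand-specific libraries after removal of ribosomal RNA. Per the labels, Trim Galore, FastQC, STAR and the mm10 genome were used, with no version. The values deposited by the authors are a signal named adjusted TPM, with a lower and an upper bound. The tool that made it, its adjustment and the level of its bounds are not given in the sources used here. They are not read counts, so depth is unknown for each library and precision was read from the bounds. ERCC spike-ins were not analysed here. Of the listed genes, 2 are not reported here and enter no list. Some label fields name genomic DNA, while the series describes RNA.

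Groups came from the labels. The 12520 genes that reached an adjusted TPM of 1 in 3 or more libraries entered limma 3.58.1 (R 4.3.3) on log2(adjusted TPM + 1), with 1 coefficient per group over all 12 libraries, a mean-variance trend and Benjamini-Hochberg adjustment over all tested genes. Every adjusted p comes from this fit, with a threshold of 0.05. The pseudocount of 1 understates the change of low genes. Cd80, under the filter, was tested by an exact permutation test (scipy 1.17.1). The fit was tested on simulated data. The members, the gene lists and the rule for named genes (each member, the 3 largest called differences in each direction of each pathway list, and the 2 nearest genes in pattern) were chosen with earlier results of these data known. Genes of marker lists are named as checks of the cells and outside this rule. Same-numbered female and male T cell libraries deviated together across genes (r = 0.72, 0.55 and 0.52), so the numbers were taken to pair them. Those of B cells did not (r = -0.17, -0.04 and -0.34). Some B cell libraries of unlike number did, namely female 3 with male 1 (r = 0.39) and female 2 with male 3 (r = 0.30). The remaining B cell pairs of unlike number lay between -0.25 and 0.12. Alternatives varied the pseudocount, filter, scaling, trend, smallest difference, libraries and replicate block. Coordinates are from GENCODE M21 on GRCm38, the build that mm10 names, and start regions are from RefSeq. Plots were drawn with matplotlib 3.10.9.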

Additional observations from a re-analysis of the deposited data

Results flagged for a closer look

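In each of the 20 sets of 6 libraries (10 genes in 2 cell types), the gap of the highest or lowest library to its neighbour was set against the whole range of the set, with a critical value of 0.625 (Dixon). Chance marks about 1 in 20 such sets. Cd80 in female T cell 6 was at 0.0804, with a gap of 0.817 of the range above the other T cell libraries, at a level where the deposited bounds span 6.26 times. Cd6 in male B cell 2 was at 0.0299, with a gap of 0.718 of the range above the other B cell libraries, and its bounds there span 12 times. Both values are far below the level in the opposite cell type.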

How the results depend on the processing

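The 9 tested members kept their direction and stayed past the threshold between B and T cells under each setting tried, and without a filter Cd80 passed as well, which made 10. The differences ranged over these settings from 5.15 to 5.79 for Icosl, 4.37 to 4.80 for Cd72, 2.24 to 2.70 for Cd86, 2.15 to 2.57 for Btla, -1.23 to -0.79 for Tnfrsf14, -1.15 to -0.67 for Cd2, -7.58 to -6.39 for Cd5, -9.24 to -6.83 for Cd28 and -9.99 to -6.75 for Cd6. The far ends of Cd28, Cd5 and Cd6 came with a pseudocount of 0.1. Rescaling every library to the same total moved the median of all tested genes by 0.34 on the log2 scale, median-ratio scaling by 0.10, and the smallest sizes of Tnfrsf14 and Cd2 (-0.79 and -0.67) came with the former. Leaving out 1 library at a time kept the count of called members at 9 between the cell types and at 0 between the sexes. For Cd80 the exact p was 0.0043 with 1 library left out. The replicate block by label number, fitted within each cell type, gave 0 called members between the sexes in B cells and 0 in T cells, so it changed no call. B and T cells share no numbers, so no pairing was possible between them. The setting without both T cell libraries numbered 6 was chosen after seeing the data, and gave 9 and 0 as well, with an exact p of 0.0095 for Cd80, the smallest those libraries allow. Averaging the T cell libraries by number, likewise chosen later, gave 9 called members and an exact p of 0.024 for Cd80. Without those numbered 6 as well, the difference of Cd80 was 0.69 on the log2 scale (exact permutation test, p = 0.071, the smallest that 6 against 2 values allow). The sign of a sex difference turned in 13 member and setting pairs in B cells and 21 in T cells, none of them called. Depth is unknown, and the deposited bounds of Cd80 in T cells and of Cd6 and Cd28 in B cells lay up to 145, 67.4 and 44.2 times apart, so these levels are imprecise.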

Other observations

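Markers of further cell types bear on which cells the pools held. Of 5 marginal zone B cell genes, 3 were higher in B cells and 2 were higher in T cells, and the list summed to 272 to 406 in B cells and to 112 to 137 in T cells. Cr2, the complement receptor CD21, was at 179 to 292 in B cells. The 2 genes higher in T cells were Cd9, at 4.64 to 9.39 in B cells and 24.2 to 28.6 in T cells, and Dtx1. Dtx1 was at 48.2 to 67.6 in B cells and 64.3 to 84.7 in T cells. Its call was lost when every library was rescaled to the same total. Of 3 plasma cell genes, 2 were higher in B cells and 1 was higher in T cells, and the list summed to 56.7 to 138 in B cells and to 2.01 to 3.00 in T cells. Igj, the J chain of secreted antibodies, was at 50.7 to 131 in B cells. The gene higher in T cells was Prdm1, at 0.521 to 0.932 in B cells and 1.31 to 1.96 in T cells. Of 2 CD8 T cell genes, 1 was higher in B cells and 1 was higher in T cells. Cd8b1 was at 5.25 to 8.11 in T cells and at 0.0153 to 0.0804 in B cells. Cd8a was at 0.0768 to 0.256 in T cells and higher, at 0.591 to 2.31, in B cells. The sum of both was 0.607 to 2.32 in B cells and 5.48 to 8.27 in T cells. None of 3 natural killer cell genes passed the filter, and they summed to 0.283 to 0.883 in B cells and to 0.0838 to 0.616 in T cells. Their part in the members' levels was not tested.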
